A study of Mus musculus with 45 samples.

Results

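Collagen chain genes were the 43 symbols made of Col, a number, the letter a and a number, out of 23284 symbols listed in each of 6 RNA-seq libraries of mouse heart. The symbols were matched by a pattern of names that uses no measured value, and sorted by textbook class into 11 fibrillar chains, 6 basement membrane chains (type IV), 9 FACIT chains (fibril-associated collagens with an interrupted helix) and 17 others. The study set the transcription factor Gata4 and histone marks beside gene expression in embryonic, adult and stressed hearts. Of its 45 samples, 39 were chromatin libraries and were not analysed here. Adult heart had 2 RNA-seq libraries, and 1 library each came from hearts of E12.5 embryos, of E12.5 embryos labelled Gata4 KO, of sham and of banded animals. The E12.5 library with the knockout label is called the Gata4 KO-labelled library below. In banding a constricting band makes the heart pump against a higher load, and sham is the operation without the band. The labels give neither the vessel banded, the time after the operation nor the age of these animals. They name the alleles Gata4fbio, Rosa26BirA, cTNTcre (Cre driven in cardiomyocytes) and Gata4flox for the whole series and do not say which animals carried them. RNA was pooled before library making, 2 µg per library, and no label ties the adult libraries to different animals or pools. P-values here therefore rest on library-to-library spread that may be technical.

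Collagens are secreted or membrane proteins in which chains wind around each other into a helix. Fibrillar collagens form the cables that bear tension, with type I the main stiff fibre of the heart, type III its more distensible companion, and type V and type XI the minor chains that start a fibril and limit its width. Type IV collagen forms the sheet-like network of the basement membrane around cardiomyocytes and capillaries. FACIT collagens sit on the surface of fibrils. The others include the beaded filaments of type VI, the short-chain network of type VIII, the transmembrane types XIII, XVII, XXIII and XXV, and types XV and XVIII, which carry sugar chains and lie at basement membranes. Fibroblasts make most of the fibrillar collagen of the heart, and type I and type III collagen are classic constituents of fibrosis.

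Of the chains with at least 5 FPKM in banding or sham, 8 stood at least 1 higher in banding in log2(FPKM + 1). Sequences just upstream of the gene start are shown for 3 of these 8, as 1 example each of 3 collagens. The 3 are Col1a2 (type I), Col3a1 (type III) and Col8a1 (type VIII). They were picked after their values were seen. The sequences come from the RefSeq promoter table of GRCm38.p6, which held 35 of the 43 members in 38 windows. Each is the 250 bases before the annotated start, 5′ to 3′ on the strand of the gene, at chr6:4505368-4505617 (plus strand), chr1:45311288-45311537 (plus strand) and chr16:57754738-57754987 (minus strand). Capitals mark 3 motifs searched on both strands: the CCAAT box, the GC box GGGCGG, which reads CCGCCC when it lies on the other strand, and the TATA box searched as TATAAA.
Col1a2: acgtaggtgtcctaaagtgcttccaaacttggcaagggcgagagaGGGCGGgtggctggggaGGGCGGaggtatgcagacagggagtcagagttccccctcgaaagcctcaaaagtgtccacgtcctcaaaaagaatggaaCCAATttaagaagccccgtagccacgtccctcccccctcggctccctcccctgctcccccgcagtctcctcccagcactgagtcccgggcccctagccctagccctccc
Col3a1: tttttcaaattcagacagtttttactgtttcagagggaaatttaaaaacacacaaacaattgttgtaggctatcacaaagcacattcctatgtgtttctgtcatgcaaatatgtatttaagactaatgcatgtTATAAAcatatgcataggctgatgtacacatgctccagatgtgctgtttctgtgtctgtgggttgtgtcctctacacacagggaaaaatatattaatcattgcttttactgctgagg
Col8a1: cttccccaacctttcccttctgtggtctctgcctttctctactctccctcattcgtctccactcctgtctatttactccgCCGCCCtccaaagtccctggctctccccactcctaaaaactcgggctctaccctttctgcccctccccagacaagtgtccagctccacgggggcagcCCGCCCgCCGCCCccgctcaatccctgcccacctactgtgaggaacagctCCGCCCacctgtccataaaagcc

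In the Col1a2 window, CCAAT lay 109 to 105 bases upstream of the start and GGGCGG at 205 to 200 and 188 to 183 bases. The Col3a1 window held TATAAA at 117 to 112 bases and neither of the other motifs, and its GC content was 35.2%, against 62% for Col1a2, 60.8% for Col8a1 and a mean of 53.2% over all windows. Col8a1 held GGGCGG on the other strand at 4 places, from 170 to 18 bases upstream. Over all member windows, 13 of 38 (34.2%) held CCAAT, against 33.8% of the 32851 windows in the table. GGGCGG was in 22 of 38 (57.9%) against 32.7% of all windows, and TATAAA in 5 of 38 (13.2%) against 12.4%. The motif of Gata factors, searched as AGATAA or TGATAA, was in 3 of 38 windows (7.89%) against 16.6% of all, and the 3 members were Col11a2, Col17a1 and Col28a1. A match is a string of letters and not a measured binding site. The type IV genes lie head to head, with the starts of Col4a1 and Col4a2 21 bases apart on opposite strands and those of Col4a5 and Col4a6 1343 bases apart.

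Libraries held 12086929 to 21056784 mapped reads, recovered from the deposited values, and 55.6% (sham) to 83.9% (adult replicate 2) of these lay on listed genes. Banding and sham held the least on listed genes and the most of the ribosomal RNA precursor Rn45s, at 12.96 and 12.94 in log2(FPKM + 1) against 6.21 to 8.94 elsewhere. FPKM counts fragments by transcript length and by the mapped reads of a library, so this lowers FPKM in banding and sham against the other libraries. Gata4 stood at 3.78 and 3.28 in adult, 5.93 in E12.5, 6.13 in the Gata4 KO-labelled library, 2.38 in banding and 2.29 in sham in log2(FPKM + 1). It was not lower under the knockout label, and the part of the gene removed is not labelled, so directions drawn from that library rest on its label. Cardiomyocyte markers were abundant in every library, with 8 of 8 above 0 and a summed 11050 to 31479 FPKM. Markers of Schwann cells, liver and skeletal muscle summed to at most 4.86, 2.13 and 3.38 FPKM. In bulk tissue, fewer cells of a type and less RNA per cell cannot be told apart, and this holds for every level below.

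Summed over the 43 chains, collagen RNA was 209 and 235 FPKM in adult, 570 in E12.5, 851 in the Gata4 KO-labelled library, 530 in banding and 254 in sham. As a share of all listed FPKM without Rn45s, this was 0.0581% and 0.0646% in adult, 0.133% in E12.5, 0.196% in the Gata4 KO-labelled library, 0.221% in banding and 0.118% in sham. Counted as reads, which gives long transcripts more weight, the share was 0.151% and 0.169% in adult, 0.283% in sham, 0.442% in E12.5, 0.544% in banding and 0.648% in the Gata4 KO-labelled library. Adult hearts thus had the lowest collagen share on both measures, while banding was highest by FPKM and the Gata4 KO-labelled library by reads. Of the 43 chains, 32 reached 1 FPKM in at least 1 library and 22 reached 5 FPKM. The other 11 stayed under 1 FPKM everywhere, with a highest level of 0.75 in log2(FPKM + 1).

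The make-up of that collagen RNA differed between libraries, and a share within a library does not depend on how libraries are scaled against each other. Basement membrane chains made up 61.4% ± 2.79 (SD, n = 2) of summed collagen FPKM in adult, 44.9% in E12.5, 37.7% in the Gata4 KO-labelled library, 37.0% in sham and 24.8% in banding. Fibrillar chains made up 17.3% ± 1.36 (SD, n = 2) in adult, 27.7% in E12.5, 32.5% in sham, 36.4% in the Gata4 KO-labelled library and 42.7% in banding. Every single library lay outside the range of the adult pair for both classes. FACIT chains stayed between 1.57% and 3.11%, and the other chains between 18.8% and 30.7%. Only in banding did fibrillar chains outweigh those of the basement membrane among the 6 libraries. Counted as reads, basement membrane chains took 29.7% and fibrillar chains 41.6% in banding.

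**Figure D1:**
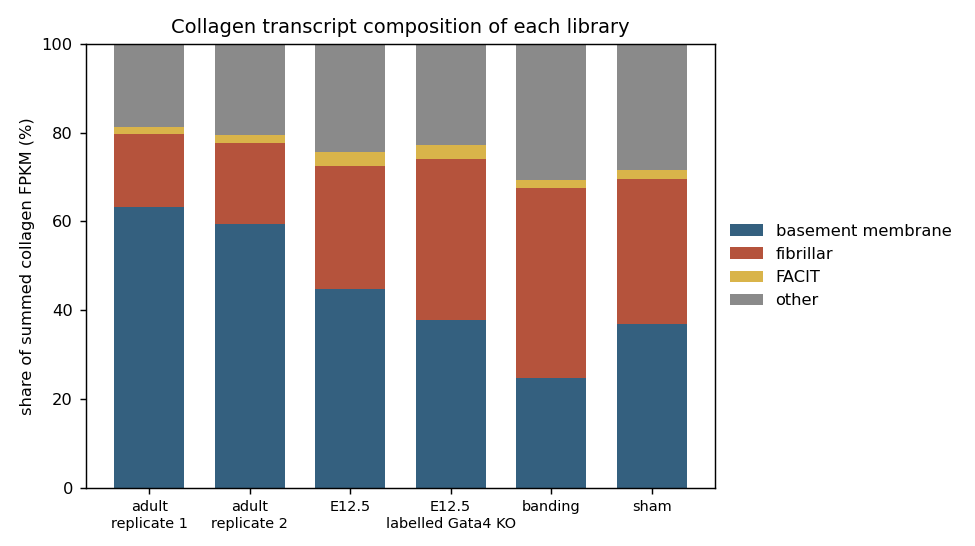
Share of summed collagen FPKM (vertical axis, %) held by each class in each of the 6 libraries (horizontal axis), with every bar stacked to 100. Basement membrane chains hold 63.4% and 59.4% in the adult libraries and 24.8% in banding, where fibrillar chains hold 42.7%.

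A few chains carried most of the total. Col4a1 and Col4a2, the partner chains of the main type IV network, held 29.5% and 31.2% of collagen FPKM in adult replicate 1 and 27.9% and 29.1% in replicate 2. They also led in E12.5 at 20.8% and 17.2%, in the Gata4 KO-labelled library at 18.7% and 14.2%, and in sham at 17.5% and 16.4%. In banding the order changed, with the type I chain Col1a1 first at 12.9%, Col3a1 next at 12.3% and Col4a1 at 11.9%. The leading 3 chains together held 66.2% and 63.3% in adult and 37.0% in banding. Next after these in FPKM came Col3a1 in adult, in sham and in the Gata4 KO-labelled library, and the type XVIII chain Col18a1 in E12.5, with 11.6%.

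The first comparison asked how collagen expression differs between the adult and the embryonic heart. Most chains were lower in adult, and the type XV chain Col15a1, the type V chain Col5a3 and the type VIII chain Col8a1 went the other way. Among the 27 chains with at least 1 FPKM in 1 of the 3 libraries, 3 rose and 21 fell by limma at an adjusted p of 0.05. Over all 12658 genes tested, 23.4% rose and 48.4% fell, 71.8% in all, so most genes moved and the members' share of falls stood above that of all genes. The members' median difference was -1.31 on the log2 scale against -0.51 for all genes. That all-gene median came to -0.036 and -0.095 when libraries were rescaled by upper quartile or by median of ratios, with 4218 rising and 4304 falling, or 4043 and 4517, in place of 2965 and 6123. The members then numbered 4 up and 18 down, or 4 up and 19 down. A size rule, a difference of at least 1 in log2(FPKM + 1) and a higher group of 5 FPKM or more, counted 1 chain higher and 12 lower in adult, where it called 11.8% of all genes higher and 27% lower. Under either rescaling it counted 1 chain higher and 9 lower, without Col3a1, Col4a6 and Col9a2, and over all genes 2282 higher and 2069 lower (upper quartile) or 2176 and 2229 (median of ratios) in place of 1499 and 3421. The spread in this test is that between the adult libraries (1 residual degree of freedom), and it assumes that the lone E12.5 library varies alike.

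**Figure D2:**
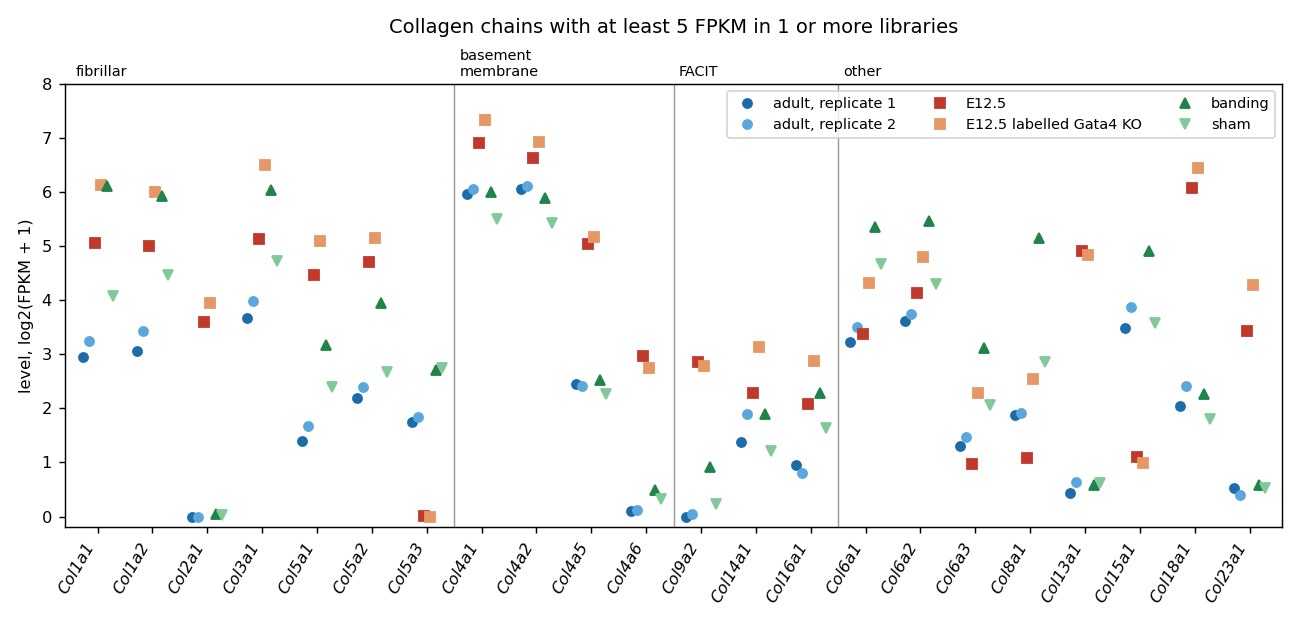
Level in log2(FPKM + 1) (vertical axis) of the 22 chains that reached 5 FPKM in at least 1 library, by class, with 1 point for each of the 6 libraries and no error bars. Col13a1, Col18a1 and Col23a1 stand high in both E12.5 libraries, Col5a3 and Col15a1 stand low there, and Col8a1 stands highest in banding at 5.15.

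Of the 9 fibrillar chains tested, 8 fell and 1 rose. Col1a1, the major type I chain, was at 6.73 and 8.46 FPKM in adult, 32.2 in E12.5, 69.2 in the Gata4 KO-labelled library, 68.1 in banding and 15.9 in sham. Its 2 adult libraries lay below all others. From E12.5 to adult it fell by 1.96 (log2, SE 0.18, limma adjusted p = 0.00945). Its partner Col1a2 was at 7.36 and 9.79 FPKM in adult, 31.0 in E12.5, 62.8 in the Gata4 KO-labelled library, 59.5 in banding and 21.1 in sham. The order of the 6 libraries was the same as for Col1a1, and Col1a2 fell by 1.75 (log2, SE 0.22, limma adjusted p = 0.0147). Col3a1, the only chain of type III, was at 11.7 and 14.8 FPKM in adult, 34.1 in E12.5, 89.3 in the Gata4 KO-labelled library, 64.9 in banding and 25.5 in sham. It fell by 1.31 (log2, SE 0.19, limma adjusted p = 0.0184), and without the filter on low values its adjusted p was 0.0566. Under the 2 rescalings its difference was -0.74 and -0.82 (log2).

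The minor fibrillar chains of type V split. Col5a1 was at 1.63 and 2.21 FPKM in adult, 21.1 in E12.5, 33.3 in the Gata4 KO-labelled library, 8.05 in banding and 4.25 in sham. Col5a2, its usual partner, was at 3.56 and 4.26 FPKM in adult, 25.0 in E12.5, 34.7 in the Gata4 KO-labelled library, 14.4 in banding and 5.37 in sham. Both were highest in the E12.5 libraries, and from E12.5 to adult Col5a1 fell by 2.93 (log2, SE 0.19) and Col5a2 by 2.41 (log2, SE 0.15). Col5a3, the further type V chain, was at 2.36 and 2.57 FPKM in adult, 5.51 in banding and 5.67 in sham, with 0.00780 in E12.5 and a listed 0 in the Gata4 KO-labelled library. Col5a3 had 1 read in E12.5, so its log2 difference depends on the pseudocount and was 4.57 with 0.1. It was the only fibrillar chain tested that rose, by 1.78 (log2, SE 0.09, limma adjusted p = 0.00500).

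Of the chains known from cartilage fibrils, Col2a1 and Col11a1 stood highest in the E12.5 libraries. Col2a1, the type II chain, was listed at 0 in both adult libraries and stood at 11.1 FPKM in E12.5, 14.4 in the Gata4 KO-labelled library, 0.0278 in banding and 0.0161 in sham. No fold can be given against a group at 0, and its fitted fall of 3.60 (log2, limma adjusted p = 0.00398) depends on the pseudocount. Col11a1, a type XI chain, was at 1.96 FPKM in E12.5 and 3.76 in the Gata4 KO-labelled library, and at most 0.265 elsewhere. The other type XI chain, Col11a2, stood highest in sham at 2.07 FPKM and in banding at 1.07. It was at most 0.289 in the other 4 libraries, where the adult and E12.5 libraries overlapped. Among chondrocyte markers in the E12.5 and labelled Gata4 KO libraries, Matn1 was listed at 0, Acan stood at 0.13 and 1.01, and Hapln1 at 2.61 and 3.17 in log2(FPKM + 1). The 5 markers summed to 8.65 and 14.9 FPKM there and to 1.03 to 7.24 FPKM elsewhere, and their part in the Col2a1 level was not tested. Col27a1 fell by 0.61 (log2, SE 0.07), or by 0.31 and 0.35 under the 2 rescalings, and its highest level was 4.21 FPKM in banding. Col24a1 stayed under 0.20 FPKM in every library.

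All 4 basement membrane chains tested fell, with very different sizes. Col4a1 was at 61.6 and 65.7 FPKM in adult, 118 in E12.5, 159 in the Gata4 KO-labelled library, 63.2 in banding and 44.5 in sham. Col4a2 followed at 65.1 and 68.5 FPKM in adult, 98.2 in E12.5, 121 in the Gata4 KO-labelled library, 58.1 in banding and 41.8 in sham. These 2 chains had the narrowest spread across libraries among the 22 chains that reached 5 FPKM. Col4a1 fell by 0.88 (log2, SE 0.08, limma adjusted p = 0.00903) and Col4a2 by 0.55 (log2, SE 0.07, limma adjusted p = 0.0163). The Col4a1 difference shrank to -0.31 and -0.38 (log2) under upper-quartile and median-of-ratios scaling, with limma adjusted p of 0.0421 and 0.0280. The Col4a2 difference was lost on rescaling, at 0.029 with upper quartiles and -0.045 with median of ratios, so its direction depends on the scaling.

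Col4a5 and Col4a6, which share a network found in smooth muscle and some other basement membranes, were embryonic to a greater extent. Col4a5 was at 4.46 and 4.34 FPKM in adult, 32.0 in E12.5, 35.1 in the Gata4 KO-labelled library, 4.77 in banding and 3.82 in sham, and fell by 2.61 (log2, SE 0.10). Col4a6 was at 0.0715 and 0.0852 FPKM in adult, 6.82 in E12.5, 5.72 in the Gata4 KO-labelled library, 0.408 in banding and 0.249 in sham, and fell by 2.86 (log2, SE 0.07). For both genes the E12.5 libraries stood apart from the other 4 without overlap. Col4a3 and Col4a4, best known from the kidney filter, were under 1 FPKM in the adult and E12.5 libraries and were not tested. They reached 1.57 and 3.06 FPKM in banding and 1.53 and 2.20 in sham.

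Among the FACIT chains, 3 of the 4 tested fell and none rose. Col9a2, a type IX chain, was at 6.23 FPKM in E12.5 and 5.87 in the Gata4 KO-labelled library, against 0.883 in banding, 0.181 in sham, 0.0295 in adult replicate 2 and a listed 0 in replicate 1. Col12a1 fell by 1.57 (log2, SE 0.14) and Col16a1 by 1.21 (log2, SE 0.11, and 0.78 with upper-quartile scaling). Col16a1 was at 0.929 and 0.746 FPKM in adult, 3.24 in E12.5, 6.35 in the Gata4 KO-labelled library, 3.86 in banding and 2.13 in sham. Col14a1 was at 1.61 and 2.74 FPKM in adult and 3.89 in E12.5, a difference that did not pass (limma adjusted p = 0.162), with 7.73 in the Gata4 KO-labelled library, 2.70 in banding and 1.31 in sham. The other 5 FACIT chains were Col9a1, Col9a3, Col19a1, Col20a1 and Col22a1. Of these, Col20a1 reached 1.82 FPKM in banding and 1.42 in sham, and the rest stayed under 1 FPKM.

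Of the 10 other chains tested, 2 rose and 6 fell. Col13a1, a transmembrane collagen of cell contacts, had the largest fall among the members tested at the pseudocount of 1. It was at 0.355 and 0.558 FPKM in adult, 29.0 in E12.5, 27.5 in the Gata4 KO-labelled library, 0.492 in banding and 0.542 in sham. With the pseudocount of 1 its fall was 4.37 (log2, SE 0.16). With a pseudocount of 0.1 its difference was -5.73, and Col2a1 (-6.81) and Col9a2 (-5.80) fell more. Col23a1, a further transmembrane chain, was at 0.434 and 0.314 FPKM in adult, 9.80 in E12.5, 18.3 in the Gata4 KO-labelled library, 0.504 in banding and 0.438 in sham, and fell by 2.98 (log2, SE 0.11). Both transmembrane chains were thus below 1 FPKM in every library other than the E12.5 ones.

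The related chains Col15a1 and Col18a1 went in opposite directions. Col18a1, whose end piece is endostatin, was at 3.10 and 4.31 FPKM in adult, 66.1 in E12.5, 86.4 in the Gata4 KO-labelled library, 3.83 in banding and 2.50 in sham. Col15a1 was at 10.2 and 13.7 FPKM in adult, 1.13 in E12.5, 0.993 in the Gata4 KO-labelled library, 28.9 in banding and 11.0 in sham. Neither gene's E12.5 libraries overlapped the other 4. Col18a1 fell by 3.85 (log2, SE 0.22, limma adjusted p = 0.00561) and Col15a1 rose by 2.59 (log2, SE 0.24, limma adjusted p = 0.00972). Endothelial markers, which could accompany both, summed to 259 and 256 FPKM in adult and 230 in E12.5. Behind these sums, 3 of the 6 markers stood higher in adult and 3 lower, from 1.58 for Kdr to -1.34 for Emcn (log2). The part of endothelial cells was not tested.

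Type VI chains form beaded filaments between cells and fibres, and the stage differences of Col6a1, Col6a2 and Col6a3 depended on the scaling. Col6a1 was at 8.41 and 10.4 FPKM in adult, 9.35 in E12.5, 19.0 in the Gata4 KO-labelled library, 39.9 in banding and 24.5 in sham. Col6a2 was at 11.2 and 12.4 FPKM in adult, 16.6 in E12.5, 27 in the Gata4 KO-labelled library, 43.2 in banding and 18.7 in sham. Adult and E12.5 overlapped for Col6a1 (limma adjusted p = 0.993). Its difference of -0.0019 became 0.51 and 0.45 (log2) under the 2 rescalings, and that of Col6a2, -0.46 (limma adjusted p = 0.0489), became 0.080 and 0.011, so neither direction is fixed by these data. Col6a3 was at 1.48 and 1.75 FPKM in adult, 0.968 in E12.5, 3.90 in the Gata4 KO-labelled library, 7.67 in banding and 3.19 in sham, and its adult difference of 0.41 did not pass (limma adjusted p = 0.0666), while both rescalings passed it at 0.66 and 0.64. Col6a6 fell by 0.72 (log2, limma adjusted p = 0.0210, and 0.0581 after upper-quartile scaling), with its highest level, 3.15 FPKM, in sham. Col6a4 and Col6a5 stayed under 0.50 FPKM.

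The type VIII chains are a network of blood vessels and of the eye. Col8a1 was at 2.65 and 2.77 FPKM in adult, 1.12 in E12.5, 4.86 in the Gata4 KO-labelled library, 34.4 in banding and 6.27 in sham, and rose by 0.81 (log2, SE 0.10, limma adjusted p = 0.0151). Its partner Col8a2 was at 1.49 FPKM in E12.5 and 2.72 in the Gata4 KO-labelled library, with 0 to 8 reads in each other library, and fell by 1.30 (log2, SE 0.05). The remaining chains, Col7a1, Col10a1, Col17a1, Col25a1 and Col28a1, stayed under 1 FPKM, apart from Col25a1 at 1.14 FPKM in the Gata4 KO-labelled library.

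Genes of chain modification and folding are given next. Of 20 such genes, 12 fell and 2 rose from E12.5 to adult by limma, against 48.4% and 23.4% of all genes, and the counts of the lists that follow stand against the same shares. Fkbp10, a collagen chaperone, fell by 3.91 (log2, SE 0.15) and Serpinh1, the collagen chaperone Hsp47, fell by 2.74 (log2, SE 0.07). Mia3, a factor for export of large cargo, was listed at 0 in adult, banding and sham and stood at 3.30 and 3.64 in log2(FPKM + 1) in the E12.5 libraries. It is 1 of the 12, but a 0 in every postnatal library can be a failed estimate, and the labels do not say whether both stages were counted with the same gene models. The rises were in the hydroxylases Plod1 by 0.57 and P4ha2 by 0.72 (log2), the latter close to the threshold (limma adjusted p = 0.0491, and 0.0548 with a pseudocount of 0.1). Of 5 crosslinking enzymes, 4 were tested, 3 fell and none rose, led by Loxl1, which fell by 3.52 (log2, SE 0.15). Of 5 procollagen processing genes tested, 2 fell and 2 rose. The enhancer protein Pcolce fell by 2.47 (log2, SE 0.38, adjusted p = 0.0218 by limma, and 0.0679 without the filter on low values), and its relative Pcolce2 rose by 1.83 (log2, SE 0.09). Of 5 receptor genes tested, 3 fell and 2 rose. The collagen-sensing kinase Ddr1 fell by 3.52 (log2, SE 0.10) and its relative Ddr2 rose by 1.82 (log2, SE 0.20).

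Markers of collagen-making cells did not move as 1 group between these stages. Of 9 fibroblast markers, 5 rose and 3 fell by limma, with a sum of 168 and 198 FPKM in adult and 90.3 in E12.5, where Dpt and Fap were listed at 0. All 5 epicardial markers fell, from a sum of 81.9 FPKM in E12.5 to 8.33 and 6.10 in adult. Of 7 smooth muscle and pericyte markers, 3 rose and 3 fell. The part of cell make-up in the collagen differences was not tested.

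The next comparison asked how collagen differs between the banded and the sham-operated heart. By the size rule, the fibrillar chains Col1a1, Col1a2, Col3a1 and Col5a2 were higher in banding. So were the type VI chains Col6a2 and Col6a3, and Col8a1 and Col15a1. With 1 library a group there is no replicate check and no p-value, and the intervals below come from the recovered reads and cover counting error only. Among 23 chains with at least 1 FPKM in either library, 20 were higher and 3 lower in banding. Over all 11011 genes measured in this way, 5993 were higher and 5018 lower. Other counts by direction in this comparison stand against these. By the size rule 8 were higher and none lower, where the rule called 1.16% of all 11011 measured genes higher and 0.463% lower. The chains' median difference was 0.64 on the log2 scale, against 0.033 for all genes. The same 8 chains were counted after either rescaling, with a pseudocount of 0.1 and without a filter on low values.

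Col8a1 had the highest ratio of these 8, at 34.4 against 6.27 FPKM, which is 5.50-fold (95% interval 4.93 to 6.13). Col1a1 followed at 68.1 against 15.9 FPKM, or 4.28-fold (3.99 to 4.60), a larger ratio than that of its partner Col1a2 at 2.82-fold (2.65 to 3.0), and the intervals did not overlap. The type III chain Col3a1 stood at 2.55-fold (2.41 to 2.69) and Col5a2 at 2.68-fold (2.41 to 3.0). Col5a1 was below the size rule at 1.89-fold (1.69 to 2.13). Its relative Col5a3 had a ratio of 0.972 (0.850 to 1.11), which includes no difference. Within type VI, Col6a3 stood at 2.41-fold (2.15 to 2.70), Col6a2 at 2.31-fold (2.14 to 2.51) and Col6a1 at 1.63-fold (1.52 to 1.75). Col15a1 completed the 8 at 2.63-fold (2.41 to 2.87).

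**Figure D3:**
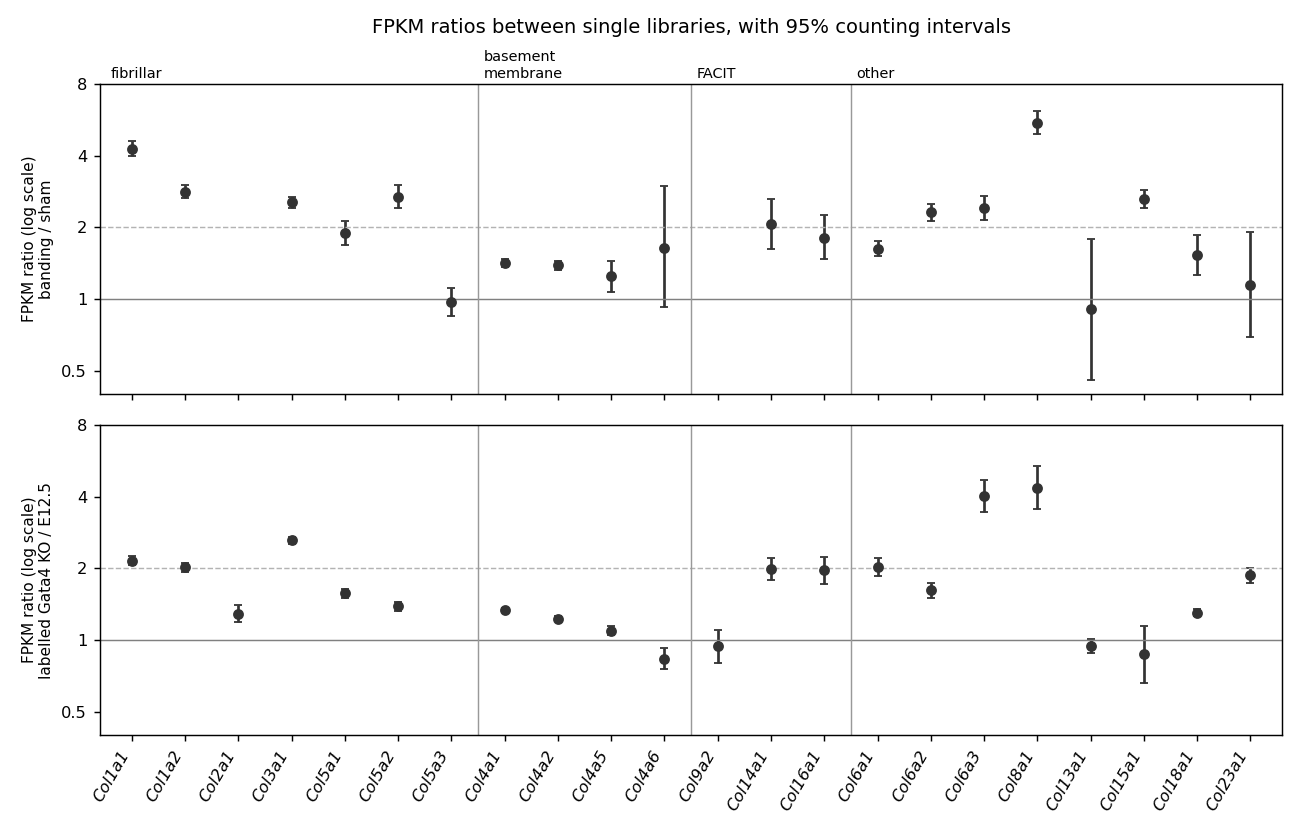
FPKM ratio (vertical axis, log scale) of banding to sham (upper panel) and of the Gata4 KO-labelled library to E12.5 (lower panel) for the 22 chains that reached 5 FPKM, leaving out those with under 10 reads in either library, with 95% intervals from counting. The solid line marks equal levels and the dashed line a ratio of 2; Col1a1 and Col3a1 lie above it in both panels, and Col8a1 has the highest point of each.

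Classes differed in size in this comparison. Of 8 measured fibrillar chains 6 were higher, 4 by size, with a median of 1.03 on the log2 scale. All 5 measured basement membrane chains were higher and none by size, with a median of 0.34: Col4a1 stood at 1.42-fold (1.36 to 1.48) and Col4a2 at 1.39-fold (1.33 to 1.45). The 3 measured FACIT chains were Col14a1 at 2.06-fold (1.63 to 2.63), Col16a1 at 1.81-fold (1.47 to 2.25) and Col20a1 at 1.28-fold (0.942 to 1.75). Other chains had a median of 1.05, with 6 of 7 higher and 4 by size. The chains lower in banding were the fibrillar Col11a2 at a ratio of 0.517 (0.390 to 0.683), Col6a6 at 0.623 (0.515 to 0.752) and Col5a3. Col18a1, the relative of Col15a1, stood at 1.53-fold (1.27 to 1.86).

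Several genes of the collagen pathway stood with the chains. Of 18 measured modification and folding genes, 16 were higher in banding and 1 by size, the chaperone Serpinh1 at 2.25-fold (2.08 to 2.44). Pcolce, which speeds removal of the procollagen end piece, was at 2.14-fold (1.86 to 2.46), and Adamts2, the protease that removes the other end piece, at 2.94-fold (2.36 to 3.70). They were the 2 of 6 processing genes counted by size. Of 3 measured crosslinking enzymes all were higher and 1 by size, Loxl2 at 3.26-fold (2.83 to 3.77). None of the 4 measured receptor genes passed the size rule in either direction. Fibroblast markers were higher too: 8 of 9 stood above sham and 3 by size, with a median difference of 0.37 on the log2 scale and none of the 9 at 0 in either library. They summed to 705 against 370 FPKM, a ratio of 1.90, of which Dcn alone gave 505 against 210, and the other 8 had a ratio of 1.25. Smooth muscle and pericyte markers also had a ratio of 1.25, leukocyte markers of 1.51, endothelial markers of 0.960 and cardiomyocyte markers of 0.849. Of the 8 cardiomyocyte markers 5 were lower and 3 higher, none by size. Chondrocyte markers had a ratio of 2.68, from sums of only 7.24 against 2.71 FPKM. Both of the 2 measured chondrocyte markers were higher, neither by size. The part of these cell types in the collagen difference was not tested.

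A further comparison set the Gata4 KO-labelled library against E12.5, again with 1 library each. Most chains were higher in the labelled library, and type I and type III chains, Col6a1, Col6a3 and Col8a1 exceeded 2-fold in FPKM. The measured type IV chains had ratios from 0.838 to 1.34. Of 27 measured chains, 23 were higher and 4 lower, with a median difference of 0.58 on the log2 scale against -0.023 for all genes. Over all genes measured, 5592 were higher and 6470 lower, and other counts by direction in this comparison stand against these. By the size rule, Col1a1 and Col3a1 were higher and none lower, where the rule called 0.929% of all 12062 measured genes higher and 0.506% lower. Col3a1 stood at 2.62-fold (2.52 to 2.72) and Col1a1 at 2.15-fold (2.06 to 2.25). Col1a2, at 2.03-fold in FPKM (1.94 to 2.12), lay just outside the rule with a difference of 0.996 in log2(FPKM + 1), and Col1a1, just inside it, had 1.08.

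All 8 measured fibrillar chains were higher in the labelled library, from 1.29-fold (1.20 to 1.4) for Col2a1 upward. Col11a1 stood at 1.92-fold (1.66 to 2.22), Col5a1 at 1.57-fold (1.51 to 1.64) and Col5a2 at 1.39-fold (1.33 to 1.45). Of the type IV chains, Col4a1 was at 1.34-fold (1.32 to 1.37) and Col4a2 at 1.23-fold (1.20 to 1.26), while Col4a6 had a ratio of 0.838 (0.759 to 0.926). The highest ratios among chains over 1 FPKM were those of Col8a1 at 4.36-fold (3.55 to 5.38) and Col6a3 at 4.02-fold (3.46 to 4.70), both from levels under 5 FPKM and so outside the size rule. Within type VI, Col6a1 was at 2.03-fold (1.86 to 2.22) and Col6a2 at 1.62-fold (1.51 to 1.74). The FACIT chains Col14a1 and Col16a1 stood at 1.99-fold (1.78 to 2.22) and 1.96-fold (1.72 to 2.24). None of these 4 passed the size rule. Col23a1 stood at 1.87-fold (1.74 to 2.01), whereas Col13a1, the other transmembrane chain that is high at E12.5, had a ratio of 0.948 (0.883 to 1.02). Col15a1, at 0.875 (0.663 to 1.15), was not shown to differ at this depth.

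Of 20 modification and folding genes, 18 were higher in the labelled library and 1 by size, Leprel1 (a collagen prolyl 3-hydroxylase) at 2.13-fold (1.94 to 2.34). Lox, which starts crosslinks between collagen chains, was at 2.32-fold (2.04 to 2.63) and was the only 1 of 4 crosslinking enzymes counted by size. None of the processing or receptor genes was counted. Several marker lists were higher in the same library. Smooth muscle and pericyte markers summed to 1118 against 534 FPKM, of which Acta2 alone gave 908 against 376, and the other 6 had a ratio of 1.33. By the size rule 3 of the 5 measured were higher, against 0.929% of all genes. These were Acta2, Pdgfrb at 2.35-fold (2.16 to 2.56) and Tagln at 2.17-fold (2.02 to 2.33). Cnn1 was the 1 lower, at a ratio of 0.974 (0.932 to 1.02). By sum, red cell markers stood at 64667 against 21255 FPKM, epicardial markers at 129 against 81.9 and fibroblast markers at 131 against 90.3. No epicardial or fibroblast marker passed the size rule, and Tbx18 (epicardial, ratio 0.877) and Mfap5 (fibroblast, 0.497) were lower. Endothelial markers summed to 323 against 230 FPKM, leukocyte markers to 52.9 against 35.6 and chondrocyte markers to 14.9 against 8.65. No marker of these lists passed the size rule either, and Kdr (endothelial) was lower, at a ratio of 0.779 (0.725 to 0.836). Cardiomyocyte markers summed to 11050 against 13973 FPKM. Their part in the collagen values was not tested.

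Banding against sham and the labelled library against E12.5 share no library. Of the 8 chains counted by size in banding, 2 (25%) were also counted in the labelled library, and they made up all (100%) of the 2 counted there, Col1a1 and Col3a1. Over all genes, 10 were counted higher in both, 7.81% of the 128 in banding and 8.93% of the 112 in the labelled library. The members' overlap rests on the rule, since Col1a2, Col6a3 and Col8a1 also exceeded 2-fold in FPKM in both comparisons, and Col1a2 was counted in the labelled library with upper-quartile scaling or a pseudocount of 0.1. Col15a1, at 2.63-fold in the first comparison and a ratio of 0.875 in the second, had intervals that lay apart. Col5a2 stood at 2.68-fold and 1.39-fold, also with separate intervals, while the intervals of Col3a1 overlapped at 2.41 to 2.69 and 2.52 to 2.72.

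Sham was also set against adult, as the background of hearts without banding. The 2 groups differ in more than the operation, and in the share of reads on listed genes. Collagen chains stood mostly higher in sham while most genes stood lower: 17 of 23 measured chains were higher and 6 lower, with a median difference of 0.77 on the log2 scale against -0.44 for all genes. Over all 11582 measured genes, 3572 were higher and 8010 lower. By the size rule 2 chains were higher, Col1a2 and Col6a1, and none lower, where the rule called 3.01% of all genes higher and 22.2% lower. Rescaling moved the all-gene median to 0.033 (upper quartile) or -0.050 (median of ratios), with 1150 genes higher and 1306 lower, or 960 and 1505, in place of 349 and 2569. Under either, 8 chains were higher: Col1a1, Col1a2, Col3a1, Col5a1, Col5a3, Col6a1, Col6a2 and Col8a1. The count rests on the adult library used, with 2 chains against replicate 2 alone and 4 against replicate 1 alone. Between the adult libraries themselves no chain of 16 passed the size rule, which called 0.285% of all genes, and 15 of 16 chains were lower in replicate 1 with a median difference of -0.24 (log2). Of all 10886 genes measured there, 6171 were lower and 4715 higher in replicate 1, with a median of -0.033.

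Ratios between chains of 1 collagen, taken within a library, also do not depend on scaling. Most type I collagen holds more Col1a1 than Col1a2 chains, and the transcripts of both stood near parity. The ratio of Col1a1 to Col1a2 FPKM was 0.914 (95% interval 0.798 to 1.05) and 0.864 (0.766 to 0.974) in adult, 1.04 (0.990 to 1.09) in E12.5, 1.10 (1.06 to 1.14) in the Gata4 KO-labelled library, 1.14 (1.10 to 1.19) in banding and 0.753 (0.691 to 0.821) in sham. Banding and sham thus lay at opposite ends. The ratio of Col3a1 to Col1a1 was 1.74 and 1.75 in adult and 1.60 (1.48 to 1.74) in sham, against 1.06 in E12.5, 1.29 in the Gata4 KO-labelled library and 0.953 (0.915 to 0.992) in banding. Col3a1 thus exceeded Col1a1 most in adult and sham and was nearest to it in E12.5 and banding.

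**Figure D4:**
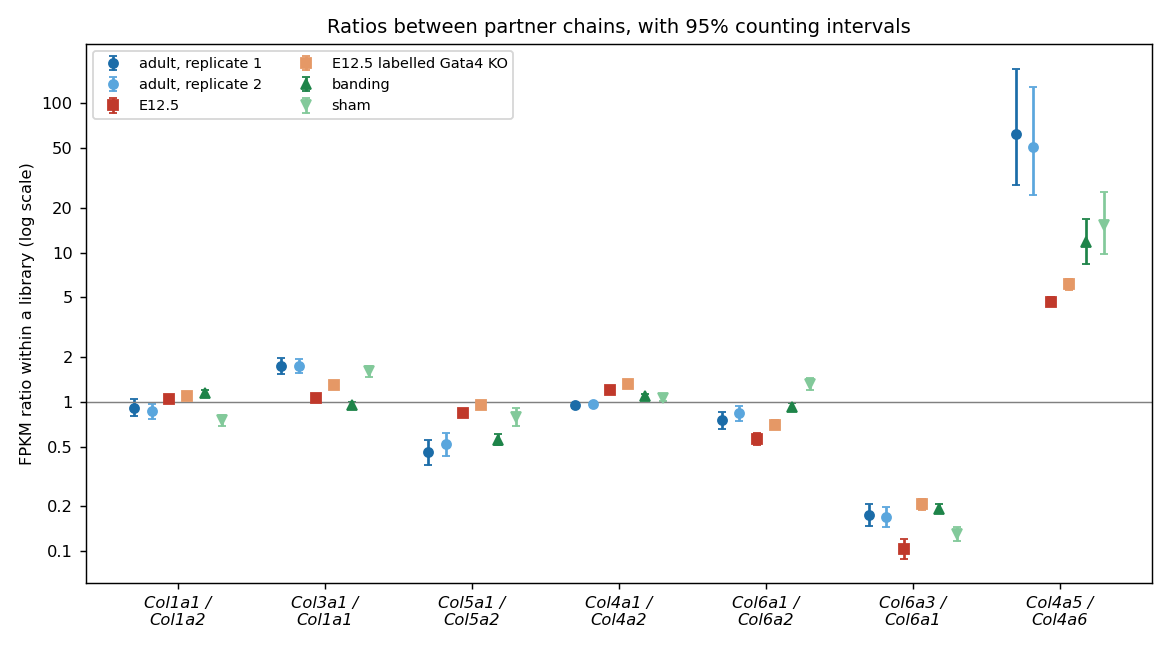
FPKM ratio of partner chains within a library (vertical axis, log scale) for 7 pairs (horizontal axis), with 1 point per library and 95% intervals from counting. Col4a1 to Col4a2 stays between 0.946 and 1.32, while Col4a5 to Col4a6 runs from 4.69 in E12.5 to 62.3 in adult replicate 1.

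Among basement membrane pairs, Col4a1 to Col4a2 stayed narrow, at 0.946 and 0.960 in adult, 1.06 in sham, 1.09 in banding, 1.21 in E12.5 and 1.32 in the Gata4 KO-labelled library. The pair Col4a5 and Col4a6, also head to head, was far less even: its ratio was 62.3 (28.4 to 171) and 50.9 (24.5 to 128) in adult, from 6 and 7 Col4a6 reads, 15.4 in sham, 11.7 in banding, 4.69 in E12.5 and 6.13 in the Gata4 KO-labelled library. The intervals in adult and in E12.5 lay apart. Col5a1 to Col5a2 was 0.459 and 0.518 in adult, 0.559 in banding, 0.793 in sham, 0.846 in E12.5 and 0.959 in the Gata4 KO-labelled library. Col6a1 to Col6a2 was lowest in E12.5 at 0.562 (0.514 to 0.615) and highest in sham at 1.31 (1.20 to 1.43), with 0.923 (0.870 to 0.979) in banding. Col6a3 was the scarcest of the 3 main type VI chains in every library, at 0.103 to 0.205 of Col6a1. The type VIII pair had comparable levels only in the E12.5 libraries, with Col8a1 to Col8a2 at 0.748 (0.580 to 0.963) in E12.5 and 1.78 (1.51 to 2.11) in the Gata4 KO-labelled library.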

How the data were processed

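The symbol pattern that picks the members uses no measured value, but this gene family and the gene lists were chosen with earlier results of these data known. Per the submitters' processing notes, the series used TopHat 1.4 and HTSeq 0.5.3 beside CASAVA 1.8.2, MACS 1.4, BWA 0.5.9 and build mm9, and their roles are not given in the sources. The values deposited by the authors are log2(FPKM + 1) per symbol, a scale read from the values, since low values are whole-number ratios only after it is undone. The planned log2 step was therefore not repeated. Whole reads were recovered for 100% of 98043 values above 0 within 0.001 of a read. Python 3.11.15 gave exact conditional binomial 95% intervals for FPKM ratios (scipy 1.17.1), which cover counting error only because the reads carry no molecular identifiers.

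Adult and E12.5 were compared with limma 3.58.1 in R 4.3.3 (mean-variance trend, Benjamini-Hochberg at 0.05 over 12658 genes that reached 1 FPKM in any of 3 libraries, 1 residual and 1.53 prior degrees of freedom). The fit was also run on simulated data, in which the E12.5 library was drawn with the same spread as the adult libraries. That run cannot check the assumption that the lone E12.5 library varies like the adult pair. Other comparisons have 1 library on at least 1 side and no p-value, and count genes by the size rule given in the text, over genes that reached 1 FPKM in either group. Log2 differences understate changes of low genes. Symbols carry no coordinates. Strand use in counting is not given. Every member is accounted for, those at 5 FPKM or more in every library where a result turns on them. Of the pathway lists, genes past the test or the rule are counted and up to 4 with the largest differences named. Other scalings, pseudocounts, filters, folds and left-out adult libraries were tried.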

Additional observations from a re-analysis of the deposited data

How the results depend on the processing

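No paired analysis was possible because only the adult libraries carry replicate numbers and the groups compared share fewer than 2 of them. Rescaling turned the direction of 3 chains between adult and E12.5: with upper-quartile scaling Col6a2 came to 0.080, Col6a1 to 0.51 and Col4a2 to 0.029 (log2), and with median-of-ratios scaling Col6a2 came to 0.011 and Col6a1 to 0.45, each above 0 where the deposited scale gave a value below it. Under median-of-ratios scaling Col4a2 no longer passed (adjusted p = 0.572), and Col6a3 passed under both (0.0225 and 0.0242). The size rule then counted 9 chains lower in place of 12. Col6a2 also missed the limma threshold with a pseudocount of 0.1 (adjusted p = 0.0526), without a filter (0.0812) and without a trend (0.0512), and so did P4ha2 (0.0548, 0.106 and 0.0520). Col6a6 missed it with upper-quartile scaling (0.0581) and without a filter (0.0569). With 1 adult library left out no residual degree of freedom remained, so limma was not run, and the size rule counted 1 chain higher and 12 lower, as with both. In banding the count went from 8 to 10 at 1.5-fold, with Col5a1 and Col6a1 added. In the Gata4 KO-labelled library it was 4 with a pseudocount of 0.1 and 9 at 1.5-fold, in place of 2. In sham against adult it was 8 under either rescaling, 5 with a pseudocount of 0.1 and 7 at 1.5-fold, where 1 chain (Col4a2) was lower, and it ranged from 2 to 4 when an adult replicate was left out. Shares counted in reads gave fibrillar chains 35.4% in the Gata4 KO-labelled library, 41.6% in banding and 31.4% in sham, and basement membrane chains 66.5% in adult, 49.8% in E12.5, 42.1% in the Gata4 KO-labelled library, 29.7% in banding and 42.9% in sham. The order of the libraries in fibrillar share was the same in reads, while sham and the Gata4 KO-labelled library changed places in basement membrane share.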
